A study of Mus musculus with 4 samples.

Results

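Runs of same-strand peaks are stretches of the genome where several peaks of RNA captured with YY1 were listed on the same strand, one after the other. A run was made by joining the peaks of 1 strand on chromosomes 1 to 19 across gaps of at most 10000 bases, and it was kept if it held 3 or more peaks whose median width was at least 300 bases. The rule found 323 runs, of which 158 were plus-strand and 165 minus-strand runs. They held 1125 of the 12053 peaks of the library, or 9.33%, and 14.5% of all bases under peaks. Of the 441 runs of 3 or more peaks, the 118 left out had a median width under 300 bases and held 474 peaks. The runs were chosen by the positions and widths of their peaks, so their number, spans, widths and covered shares are descriptions. The order of the widths and gaps within a run, and the peaks on the other strand, played no part in the choice.

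The peaks come from CLIP-seq, which sequences RNA that ultraviolet light has crosslinked to a protein. Mouse embryonic stem cells carried the bacterial biotin ligase BirA and a biotin-tagged YY1 (genotype BirA BioYY1). They grew on irradiated mouse embryonic fibroblasts, and RNA was taken from purified nuclei after irradiation at 254 nm. Cells with BirA alone served as the control of the study, which also had an OCT4 library with its own BirA control. These other 3 libraries were not analysed here. With 1 library there is no replicate error, and no p-value is given.

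YY1 is a zinc finger transcription factor that occupies promoters and enhancers and also binds RNA. RNA polymerase II makes a precursor RNA as one molecule that runs through exons and introns from 5′ to 3′. A long precursor, or neighbouring genes read in the same direction, can therefore place several peaks on 1 strand. How wide each peak is, and where the widest one lies from 5′ to 3′, describes how the captured RNA was spread along such a stretch. All positions are in the mm9 build, and neither genes nor sequences of that build were used here, so runs are named by position.

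Most runs were short chains. There were 222 runs of 3 peaks, 67 of 4, 21 of 5, 8 of 6, 2 of 7 and 3 of 8. The median span, from the outer edge of the first peak to that of the last, was 11999 bases (95% interval from binomial ranks 11079 to 12769), and spans ran from 1412 to 61676 bases. The span rose with the number of peaks, from a median of 10381.5 bases in runs of 3 peaks to 14744 in runs of 4 and 26201 in runs of 5. Only 28 runs spanned less than 3000 bases, and 45 spanned more than 20000. Member peaks had a median width of 548 bases, with quartiles of 371 and 876, against 318 bases in the other autosomal peaks. The width rule favours such a difference, and how much of it the rule accounts for was not tested. Single narrow peaks were still part of the runs, since 156 member peaks were under 300 bases. In 183 runs every peak reached 300 bases.

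The most peaks, 7 or 8, were found in 5 runs. The run with the longest span lay on the plus strand at chr10:82836121-82897796. Its 8 peaks measured 1137, 2436, 371, 1994, 1189, 2113, 3020 and 598 bases from 5′ to 3′. The widest was thus the last but one, and wide and narrow peaks were mixed along the run. Gaps between them were 3395 to 8897 bases, and peaks covered 20.8% of 61.7 kb. On the plus strand, the run at chr14:8736898-8784098 had 8 narrower peaks, of 290 to 1117 bases. A close pair of peaks stood at each end, with gaps of 604 and 91 bases, and gaps of 6905 to 9403 bases lay between. Peaks covered 9.32% of this run.

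The third run of 8 peaks, on the minus strand at chr1:134894704-134930981, opened with its narrowest peak, of 124 bases. Its wide peaks came late, 1800 bases at the sixth place and 2189 at the seventh, separated by 123 bases. The last peak measured 619 bases. A minus-strand run of 7 peaks at chr1:183849294-183883299 likewise had its widest peak, of 1165 bases, next to last, and its other peaks measured 222 to 590 bases. The other run of 7, on the minus strand at chr11:69481053-69500588, was the most densely covered of these 5, with 31.2% of 19.5 kb under peaks. Its widest peak, of 1638 bases, lay at the fourth place. In all 5 of these runs an inner peak was the widest. Most places in runs of this length are inner, so no preference is read from this count.

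**Figure D1:**
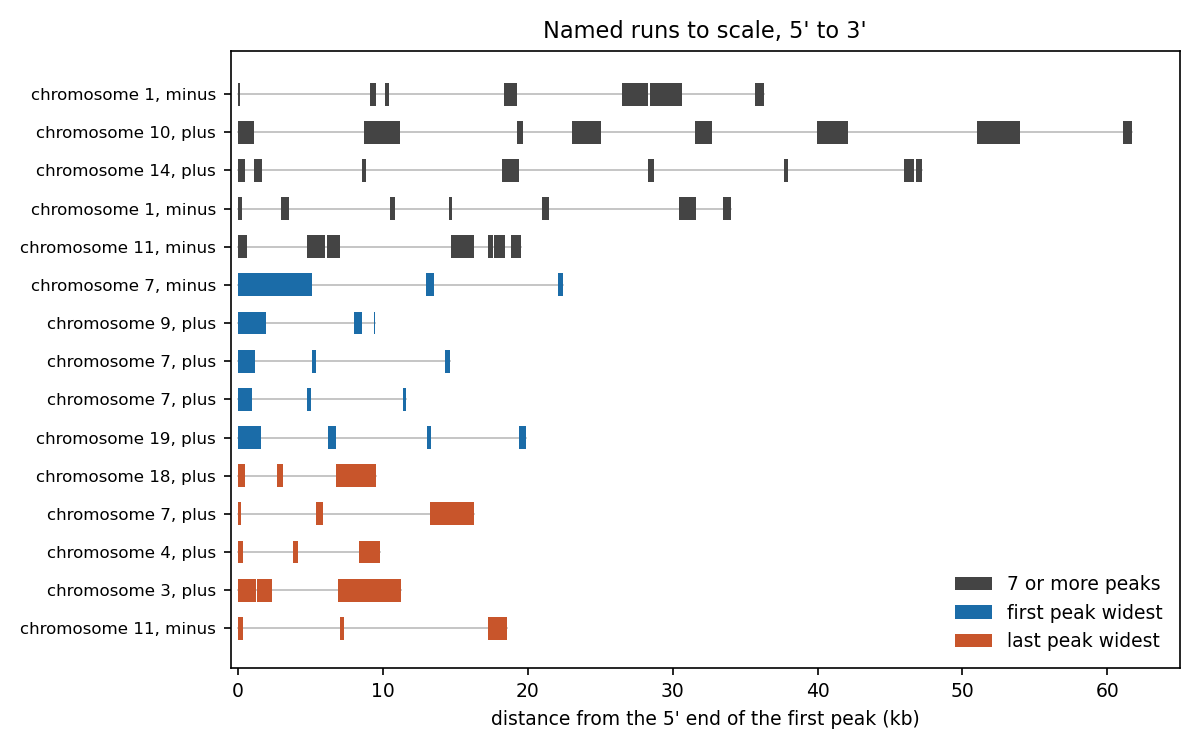
Named runs drawn to scale, with distance from the 5′ end of the first peak in kb on the horizontal axis and 1 run per row; filled blocks are peaks and thin lines are gaps. The 5 runs of 7 or more peaks are grey, and below them stand the 5 runs with the most dominant first peak (blue) and the 5 with the most dominant last peak (orange).

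Across all runs the widest peak lay first as often as last. It was the first peak in 96 runs, an inner peak in 127 and the last peak in 96. Another 4 runs had a tie for the widest and were left out. The first-peak share was 30.1% of 319 runs (exact 95% interval 25.1 to 35.5), the inner share was 39.8% (34.4 to 45.4) and the last-peak share was 30.1% (25.1 to 35.5). If each place of a run were widest equally often, the shares would be 30.0%, 40.1% and 30.0%. Each interval held its value, so no preference for an end or for the inner peaks was detectable with this number of runs. The intervals allow a first-peak share up to 35.5%. They treat runs as independent and cover counting error only.

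Neither strand alone departed from an even split beyond its counting error. On the plus strand the widest peak was first in 46 runs and last in 52, a first-peak share among these of 46.9% (36.8 to 57.3). On the minus strand it was first in 50 and last in 44, or 53.2% (42.6 to 63.6). The strands differed by 6.25 percentage points, and the interval of that difference, -7.76 to 19.9, held 0. First and last would change places if the list names gave the template strand, which leaves an even split even. Read along the genome regardless of strand, the widest peak came first in 90 runs and last in 102.

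The place of the widest peak was also counted by the length of the run. In runs of 3 peaks, the widest was the first in 76, the second in 67 and the third in 75. In runs of 4 peaks the counts from 5′ to 3′ were 14, 16, 19 and 18. The 34 runs of 5 or more peaks had an inner widest peak in 73.5% (55.6 to 87.1), where equal places would give 63.6%. The first peak was widest in 6 of these 34 and the last in 3, a first-peak share of 66.7% whose interval, 29.9 to 92.5, is too wide to read a balance or a lean from. The runs with median widths under 300 bases gave a first-peak share of 29.3% of 116 runs, an inner share of 46.6% and a last-peak share of 24.1%. The difference between the runs of wider and narrower peaks was 0.784 percentage points for the first-peak share (Newcombe 95% interval -9.26 to 9.95) and 5.96 for the last-peak share (-3.82 to 14.6). Neither difference stood outside its counting error.

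**Figure D2:**
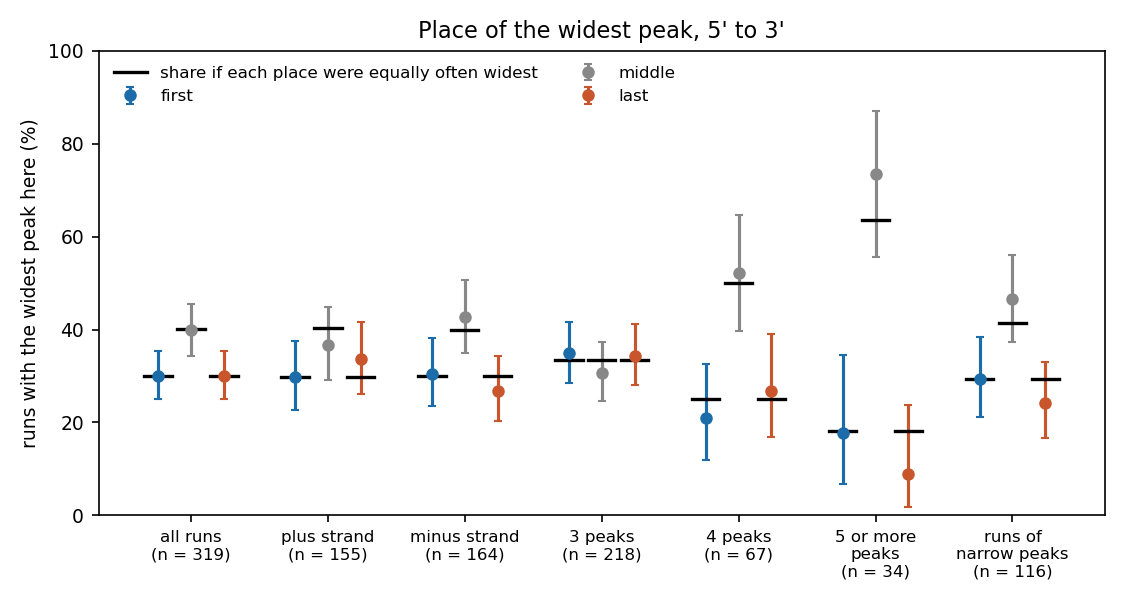
Share of runs (vertical axis, %) in which the first, a middle or the last peak is widest, for all runs, by strand, by number of peaks and for runs with a median width under 300 bases; points are shares, error bars are exact 95% intervals and black dashes mark the share that equal places would give. First and last shares are both 30.1% over all runs, and each error bar over all runs crosses its dash.

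First and last peaks were of like width. The median width of the first peak was 536 bases (483 to 578) and that of the last was 540 (486 to 579). The first peak was wider than the last in 164 of 320 runs without a tie, or 51.3% (45.6 to 56.8). In runs of 3 peaks the medians from 5′ to 3′ were 537, 525 and 520.5 bases. In runs of 4 peaks they were 535, 642, 643 and 560 bases, and the intervals of these places overlapped. In runs of 4 or more peaks the last but one was wider than the last in 61 of 100 runs (50.7 to 70.6%), while the second was wider than the first in 56 of 101, or 55.4% (45.2 to 65.3). The former interval excluded 50%. In the 5-or-more-peak runs among these, the last but one was wider in 24 of 33, or 72.7% (54.5 to 86.7), and the second was wider than the first in 17 of 34. In the runs of 4 peaks the last but one was wider in 37 of 67, or 55.2% (42.6 to 67.4), an interval that held 50%. Over all runs, the last but one was wider than the last in 53.7% (48.1 to 59.3). These are several neighbour comparisons on overlapping runs, with no adjustment for their number. For steady slopes no preferred direction was detectable. Widths fell at every step in 48 runs (14.9%) and rose at every step in 45 (13.9%). In runs of 3 peaks these shares were 19.8% and 18.9%. The shares that a random order of the widths would give were not computed.

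**Figure D3:**
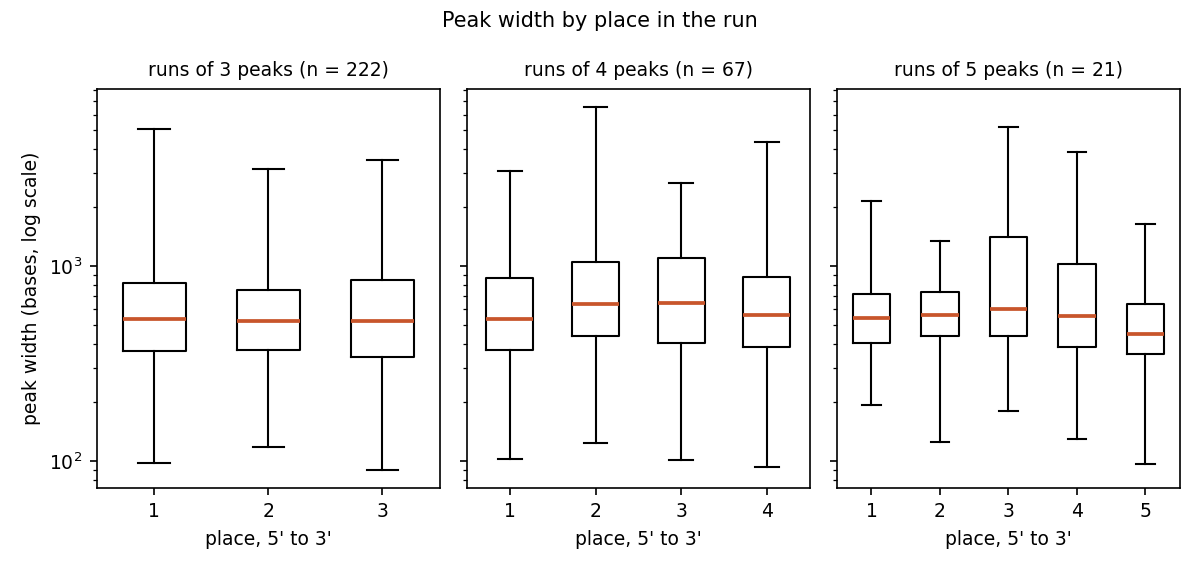
Peak width in bases (log scale) by place from 5′ to 3′ in runs of 3, 4 and 5 peaks; boxes span the quartiles, orange lines are medians and whiskers reach the lowest and highest widths. Medians stay between 449 and 643 bases at every place shown, and the boxes of neighbouring places overlap.

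Within a run the widest peak was usually only somewhat wider than the next. The median ratio of the widest to the second widest was 1.38 (1.32 to 1.44), and the widest peak held a median of 44.0% of a run's covered bases. In 61 runs, or 18.9%, the widest was at least 2 times the second widest. From the widest to the narrowest peak of a run the median ratio was 2.80.

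A few runs had 1 dominant end. Among those with the first peak widest, the minus-strand run at chr7:26013449-26035846 stood out, with peaks of 5079, 551 and 288 bases and a ratio of 9.22. The next in rank were plus-strand runs. At chr9:47338470-47347935 the peaks measured 1905, 546 and 113 bases. At chr7:135111004-135125604 they measured 1163, 328 and 337 bases, and at chr7:117161835-117173421 980, 304 and 174 bases. The 4 peaks at chr19:42056051-42075923 measured 1597, 577, 330 and 451 bases. In 3 of these 5 runs the widths fell from peak to peak through to the last.

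Other runs had the opposite shape, and the 5 with the highest ratio are given here too. In the plus-strand run at chr18:35713900-35723443 peaks of 448 and 450 bases were followed by one of 2752 bases, a ratio of 6.12. At chr7:4083508-4099829, also on the plus strand, widths rose from 232 to 515 and 3089 bases, with a ratio of 5.998. At chr4:137116857-137126690 on the plus strand they were 360, 301 and 1489 bases. A plus-strand run at chr3:41359683-41370929 had 3 nearly touching peaks of 796, 434 and 1092 bases, and 4558 bases after them came 1 of 4316 bases. The minus-strand run at chr11:29999351-30017935 ended in a peak of 1356 bases after peaks of 347 and 252. In these 5 runs the dominant last peak was a single wide region some kilobases after narrower ones.

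Over all runs no trend of the gaps from 5′ to 3′ was detectable. The first gap was longer than the last in 159 of 323 runs, or 49.2% (43.6 to 54.8). Median gaps were 4618 bases at the 5′ end (3788 to 5120) and 4317 bases at the 3′ end (3132 to 4910). The share was 46.8% for plus-strand runs and 51.5% for minus-strand runs, a difference of 4.68 points whose interval, -6.17 to 15.4, held 0. By length, the first gap was the longer in 50.0% of runs of 3 peaks (43.2 to 56.8) and 38.8% of runs of 4 (27.1 to 51.5). In runs of 5 or more peaks it was the longer in 64.7% (46.5 to 80.3). Each of these intervals held 50%. Runs of 3 peaks had no lean, while runs of 4 and runs of 5 or more leaned in different directions. No interval was computed for the difference between them. The surroundings of the runs were also balanced. The next same-strand peak outside the run lay at a median of 73897 bases upstream and 70468 bases downstream, and it was the nearer one upstream in 48.6% of 321 runs (43.0 to 54.2).

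Gaps of a few kilobases were scarcer than shorter or longer ones, a pattern described here after the values were seen. The joining rule cuts all gaps at 10000 bases, so the longer gaps have no upper edge of their own. Of the 802 gaps within runs, 121 (15.1%) were under 200 bases, and 169 were under 500. Counts then fell to 14 in the bin from 3000 to 3500 bases and rose again to 41 from 4500 to 5000. Above that they stayed between 30 and 45 per bin up to the joining limit. Gaps of 2000 to 4000 bases numbered 72, in 64 runs, and gaps of 4000 to 6000 bases numbered 150, in 124 runs. Of the gaps in these equally wide ranges, 67.6% were in the longer one (61.0 to 73.7). The share was 61.9% on the plus strand (51.4 to 71.5), 72.0% on the minus strand (63.3 to 79.7) and 69.6% without chromosome 11 (62.6 to 76.0). Other same-strand neighbours within 10000 bases also had fewer gaps in the shorter range. They had 197 gaps of 2000 to 4000 bases and 262 of 4000 to 6000, or 57.1% (52.4 to 61.7). These neighbours were of 2 kinds. Groups of 2 peaks gave 57.6% (52.4 to 62.7), and runs with a median width under 300 bases gave 54.9% (44.2 to 65.4). The latter interval held 50%. The scarcity of gaps of a few kilobases was therefore also seen in groups of 2 peaks, but was not clear in the runs of narrower peaks. Whether the peak caller sets these distances was not tested.

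**Figure D4:**
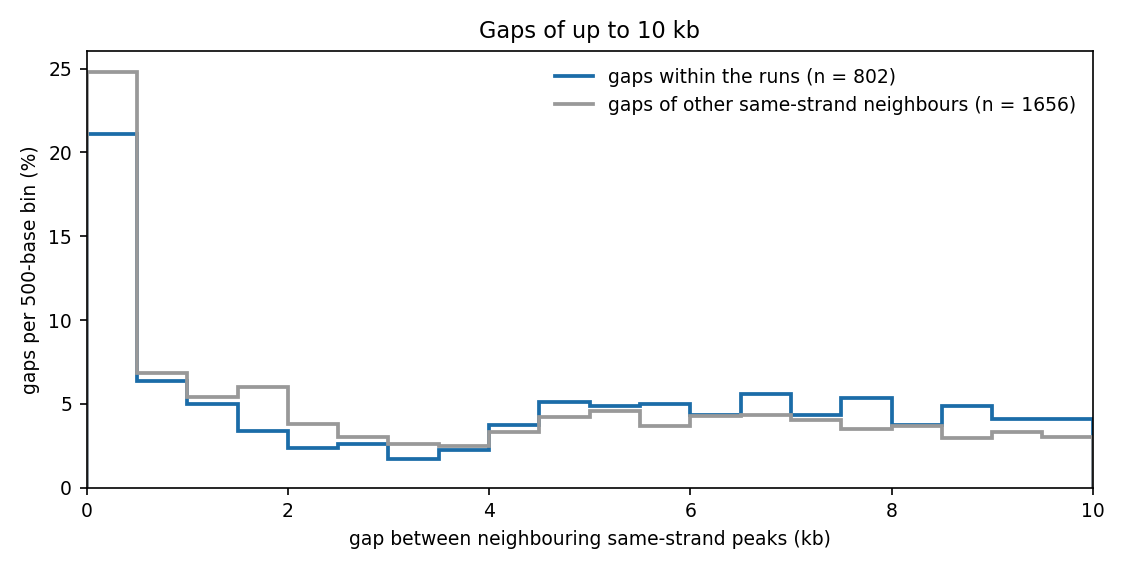
Gaps of up to 10 kb between neighbouring same-strand peaks, as the percent of gaps per 500-base bin (vertical axis) against gap length in kb, for the 802 gaps within the runs (blue) and for the other same-strand neighbours (grey). Both lines are highest below 0.5 kb, are low between 3 and 4 kb and are higher again from 4.5 kb.

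By their gaps the runs were of different build. In 158 runs (48.9%) every gap was 1000 bases or more. Their median span was 14613.5 bases and peaks covered a median of 14.1% of it (12.9 to 15.0). In 27 runs (8.36%) every gap was under 1000 bases. These compact runs had a median span of 2217 bases and a median covered share of 74.6% (69.7 to 91.0). Span and covered share are computed from the gaps that define these kinds, so this contrast follows from the definition. The other 138 runs had gaps of both kinds and a median covered share of 20.2%. Peak widths did not separate them, since the median over runs of the median width was 538 bases in compact runs (421 to 664), 535 in spaced runs (497 to 589) and 548 in mixed ones (524 to 595). The widest peak was first in 7 and last in 10 compact runs, and first in 47 and last in 48 spaced runs.

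Over all runs, peaks covered 809 kb of 4262 kb of summed span, or 18.99%. The median covered share was 17.8% (17.0 to 19.7), and 34 runs were covered over more than 50% of their span. The 5 runs with the highest covered share were all compact, as small gaps imply, with 3 peaks each. They were near-continuous blocks of 2.17 to 2.59 kb. The plus-strand run at chr10:41248516-41250805 was 96.6% covered, with peaks of 917, 882 and 414 bases and gaps of 13 and 64. The minus-strand run at chr6:72559363-72561530 was also 96.6% covered, with gaps of 35 and 38 bases. The next was a minus-strand run at chr4:55542760-55545348 (95.9%), in which widths rose from 313 to 645 and 1525 bases. Plus-strand runs at chr13:13602230-13604395 (94.7%) and chr14:12386050-12388266 (93.0%) followed. Whether such neighbours are 1 bound region that was called in pieces was not tested.

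The sparsest runs were thin chains. The plus-strand run at chr7:127584745-127602467 had peaks of 373, 347 and 186 bases over 17.7 kb and was 5.11% covered. Minus-strand runs at chr10:121474841-121492423 (6.02%) and chr4:43527990-43544743 (6.09%) were alike. Among the longest, the plus-strand run at chr8:86939849-86974732 spread 5 peaks of 265 to 1029 bases over 34.9 kb. Another, at chr5:138731790-138766050, had 6 peaks, of 906 bases at the 5′ end and 276 at the 3′ end, and 10.8% of 34.3 kb was covered.

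**Figure D5:**
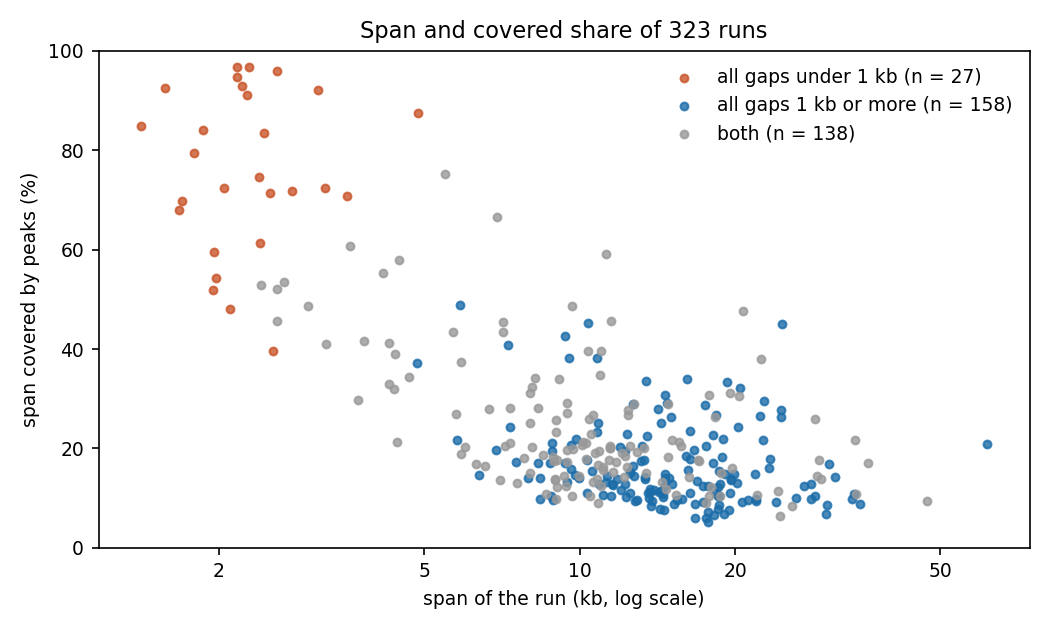
Span in kb (log scale) against the percent of the span covered by peaks, 1 point per run, coloured by whether all gaps were under 1 kb (27 runs), all were 1 kb or more (158) or both kinds occurred (138). Compact runs lie at the upper left, from 39.7% to 96.6% covered, and spaced runs at 5.11% to 48.9%. Gap lengths enter both axes.

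Runs were mostly free of peaks on the other strand. An opposite-strand peak lay within the span of 14 of 323 runs, or 4.33% (2.39 to 7.17), and over a member peak in 8. Runs of narrower peaks had one in 26 of 118, or 22.0% (14.9 to 30.6). The difference was -17.7 percentage points (-26.2 to -10.6). These kinds of run differed in build as well as in peak width. Of 356 gaps in runs of narrower peaks, 61 were 1500 to 2000 bases, against 27 of 802 in runs of wider peaks. The lowest share of covered bases held by the widest peak was 2.46% in the former and 20.9% in the latter. Median spans were 11999 bases (11079 to 12769) in the runs of wider peaks and 10123.5 (8895 to 11256) in those of narrower peaks. The longest spans were 61676 and 85007 bases. Whether span or build bears on the difference was not tested. Transcription in the other direction from the same promoter would put an opposite-strand peak upstream of the first peak. Promoter positions were not used here. An opposite-strand peak within 2000 bases upstream of the first peak was found at 6 runs, or 1.86% (0.685 to 3.999). Within 2000 bases downstream of the last peak there was one at 2 runs, or 0.619% (0.0751 to 2.22). The intervals overlapped, and so few runs could show no preference. Runs of narrower peaks had one upstream in 7.63% and downstream in 9.32%. The 1300 groups of only 2 peaks had low shares like those of the runs of wider peaks, 2.38% upstream (1.63 to 3.37) and 0.538% downstream (0.217 to 1.11). In these groups the upstream share was the higher, with intervals that did not overlap. The runs of wider peaks leaned the same way within their counting error, and the runs of narrower peaks did not. Upstream and downstream would change places if the list names gave the template strand, which would reverse these leans. The differences between runs, wider minus narrower, were -5.77 percentage points upstream (-12.1 to -1.62) and -8.70 downstream (-15.3 to -4.36).

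Where strands met, some runs were large. The 8-peak run at chr1:134894704-134930981 had 2 plus-strand peaks in its span. The minus-strand run at chr6:136752465-136776656, of 6 peaks, had 2, none over a member peak. The plus-strand run at chr13:23830676-23856441 had 3 minus-strand peaks between its 5 peaks, the most of any run.

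The share of peaks that belonged to runs differed between chromosomes. Chromosomes 7 and 11 had 38 runs each. These took in 16.1% of the peaks of chromosome 7 (13.6 to 18.8) and 11.4% of those of chromosome 11 (9.68 to 13.4). Over all autosomal peaks the share was 9.58%, just under the interval of chromosome 11. Chromosome 10, with 22 runs, had a higher share than chromosome 11, at 12.7% (10.2 to 15.6). The lowest share was 3.28% on chromosome 13 (1.92 to 5.20), with 5 runs. The intervals of chromosomes 7 and 13 were far apart, although peaks of 1 run are not independent and such intervals are too narrow.

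Runs on both sides of the width threshold differed in size and span. Just inside were the plus-strand run at chr10:127507358-127522743, with a median of 301 bases over 15.4 kb, the minus-strand run at chr19:3574974-3586487, with 302, and that at chr10:19588608-19596968, with 304. The plus-strand run at chr7:117161835-117173421, named above, had the same median as the last of these. Just outside were the plus-strand run at chr12:70397691-70400548, with 298 over 2.86 kb, the minus-strand run of 7 peaks at chr11:40493061-40538265, with 297 over 45.2 kb, and the plus-strand run at chr6:33568695-33585973, with 296.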

How the data were processed

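The deposited lists of 1 YY1 library give chromosome, start and end of each peak, 1 list per genome strand, and no score, coverage or read count. Cutadapt, Bowtie, Bowtie2, SAMtools and the build mm9 are named in the submitters' processing notes. The peak caller, its threshold and any use of the control were not given in the sources used. Read depth is unknown, and a width depends on it. Strand was read from the names of the lists. Positions were made 1-based. A gap is the number of bases between neighbouring peaks. Shares carry exact Clopper-Pearson 95% intervals, medians intervals from binomial ranks, and differences Newcombe intervals.

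The runs and their rule were chosen with earlier results of these data known. Named are all runs of 7 or more peaks, the 5 longest, the 5 most and 3 least covered, the 5 with the highest ratio of widest to second widest peak at each end, and 3 each side of the width threshold. Other runs, the gap ranges and the compact and spaced runs were chosen after their values were seen. Alternatives changed the gap limit, width, number of peaks, chromosomes, strand, order and peak joining. Position within genes was not computed, since the gene table at hand belongs to another build. On simulated data all 360 planted runs were found with their order, widths and gaps. Python 3.11.15 was used with numpy 2.4.6, scipy 1.17.1 and matplotlib 3.10.9.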

Additional observations from a re-analysis of the deposited data

How the results depend on the processing

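Over 91 recomputed values, 75 lay inside the main 95% interval or, for the number of runs, within a factor of 1.5. The first-peak share among runs with an end widest ranged from 44.3% to 53.2%, and the share with a longer first gap from 43.4% to 51.5%. In all 27 alternatives for these shares the interval held 50%. A gap limit of 5000 bases left 113 runs, with a median span of 4662 bases, a covered share of 43.5% and a longer first gap in 43.4%. A limit of 20000 bases gave 562 runs, 22206.5 bases and 10.3%. With 4 or more peaks there were 101 runs, with a median span of 17720 bases, and the widest peak was first in 19.8% and last in 20.8%, lower because such runs have more inner places. The plus strand alone had 158 runs and the minus strand 165. Joining peaks within 100 bases first raised the median span to 13330 bases. With no width minimum the covered share was 15.1%. An opposite-strand peak lay within 5000 bases upstream of the first peak at 4.02% of runs. Alternatives for position within genes were not run. No paired analysis was possible because only 1 library was used. As read depth is unknown, a gap may hold bound RNA that was not called.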

Other observations

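Some of the widest peaks of the runs lay at inner places, in examples chosen after their values were seen. The minus-strand run at chr19:4786859-4811539 had peaks of 1302, 6549, 1877 and 1384 bases from 5′ to 3′, and 45.0% of its span was covered. The minus-strand run at chr5:115574153-115608256 had a peak of 5159 bases at the third place, with neighbours of 888 and 418 bases. The plus-strand run at chr17:23940176-23960912 had peaks of 916, 563, 2895, 3857 and 1648 bases and was 47.6% covered. By contrast, the 6 peaks of the plus-strand run at chr11:97524189-97546684 were evenly wide, between 939 and 1840 bases, with gaps that ran from 11 to 6330 bases.

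Wide peaks were common in the runs without being confined to them. Of 982 autosomal peaks over 1000 bases, 220 were members, or 22.4%, and the width rule favours them. Longer stretches were only partly made of runs. When peaks of any width were joined across 50 kb, the stretch with a median width of at least 300 bases and the most peaks, on the plus strand at chr6:33201200-33714166, had 37 peaks, of which 15 lay in 4 runs. On the minus strand at chr11:69481053-69667074, 13 of 17 peaks lay in 2 runs, 1 at each end. Another run of the same strand lay within 50 kb of 28 of the 323 runs, or 8.67%. By the joining rule only distances over 10 kb could count here. The share that scattered runs would give was not computed.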
